A study of Mus musculus with 143 samples.

Results

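RNA was sequenced from the striatum of zQ175 mice that had been given HTT-10150, a small interfering RNA (siRNA) against Htt, at 2 months and again at 6 months of age. They were compared with zQ175 mice given NTC, a non-targeting siRNA, at the same ages. Each group held 8 mice, 4 female and 4 male, and all were 10 months old when the striatum was collected. The libraries were chosen by the group label of strategy 2+6[8]10, and the 16 libraries are part of a series of 143, with 1 library per mouse. Other groups of the strategy are used for comparison: 8 untreated zQ175 mice, 7 wild-type mice given HTT-10150 (2 female and 5 male), 8 wild-type mice given NTC and 8 untreated wild-type mice, all aged 10 months. In 2 further strategies, zQ175 mice received a single treatment at 6 months with collection at 10 months (6[4]10), or at 2 months with collection at 6 months (2[4]6). The amount of siRNA and the route by which it was given are not stated in the sources used here.

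zQ175 is a knock-in model of Huntington's disease in which the mouse's own Htt gene carries an expanded CAG repeat, so the expanded protein is made wherever Htt is normally active. Huntingtin is a large scaffold protein found in every cell, and medium spiny neurons, the GABA-releasing projection neurons that make up most striatal cells, are the ones most affected in the disease. A siRNA is loaded onto an Argonaute protein and directs cleavage of messages that match its guide strand. It can also repress messages with a shorter match to the guide. Such matches of HTT-10150 were not examined here, and NTC, a different siRNA, need not share them.

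The coding start of mouse Htt is shown because it holds the repeat that differs between the alleles. It covers 90 bases of exon 1 of transcript Htt-201 on the plus strand of GRCm38, chr5:34761907-34761996, from the GENCODE M21 transcripts. Capitals mark the longest unbroken run of CAG codons, of which the reference mouse allele has 4.
Htt-201: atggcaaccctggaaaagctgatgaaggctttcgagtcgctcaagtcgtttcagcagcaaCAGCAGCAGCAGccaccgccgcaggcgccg
The expanded zQ175 allele and the siRNA strands are not printed, since no source used here holds them. Which allele the counts in the Htt row come from was not determined. The table also holds a separate entry for a mutant Htt, whose expected counts summed to 14.3 over the 8 zQ175 mice given HTT-10150 and to 23.5 over the 8 given NTC.

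Htt was lower in every mouse given HTT-10150 than in any mouse given NTC. Htt (ENSMUSG00000029104, chromosome 5, 34761740 to 34912534, GRCm38) had a lowest, median and highest level of 85.7, 109 and 119.8 CPM (counts of the gene scaled to a common library size) with HTT-10150, against 131, 138 and 144.5 CPM with NTC. The groups did not overlap. Mean levels were 107.4 ± 11.97 CPM with HTT-10150 and 137.5 ± 5.30 CPM with NTC (SD, n = 8 each), which is 21.9% lower. The exact two-sided permutation p was 0.000155, the smallest that 8 against 8 allows. By edgeR's quasi-likelihood test over 15506 genes the log2 fold change was -0.36 ± 0.06 (SE) with a Benjamini-Hochberg adjusted p of 0.00035. Since RNA was taken from whole tissue, fewer cells of a type and less RNA per cell cannot be told apart, for Htt or any gene below.

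**Figure D1:**
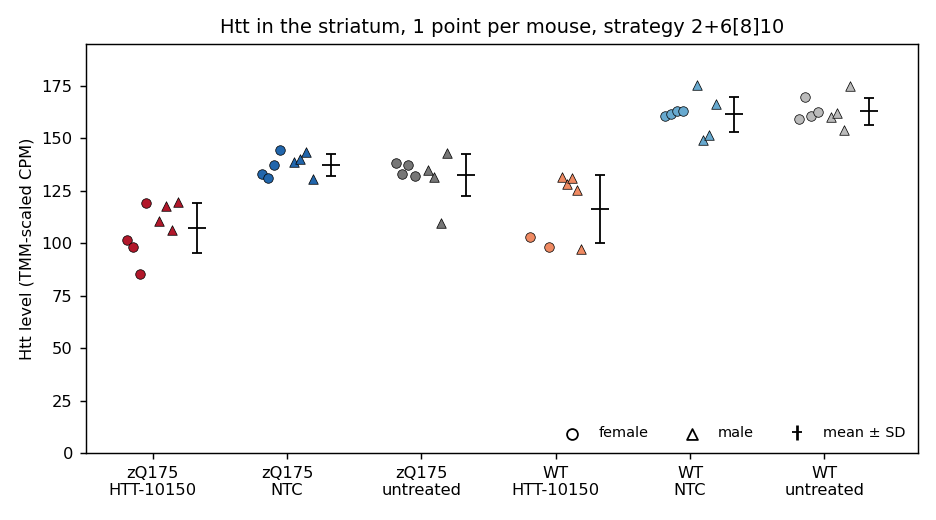
Level of Htt in TMM-scaled CPM (y axis, from 0) for each mouse of the 6 groups of strategy 2+6[8]10; circles are females, triangles males, and the dash with bars is the mean ± SD. The 8 zQ175 mice given HTT-10150 lie between 85.7 and 119.8 CPM, all below the 8 given NTC.

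Females averaged 101 ± 13.8 CPM with HTT-10150 and 137 ± 5.85 CPM with NTC, 25.99% lower (n = 4 each, exact permutation p = 0.0286, the smallest possible). Males averaged 114 ± 6.20 CPM with HTT-10150 and 138 ± 5.46 CPM with NTC, 17.8% lower (n = 4 each, exact permutation p = 0.0286), although with edgeR on males alone the adjusted p over all genes was 0.16. No gene, Htt included, passed a test of the difference between the sexes in edgeR or in DESeq2 (490 genes at an unadjusted p under 0.05 in edgeR). Library names carry a number whose meaning the labels do not give; within the 7 such numbers present in both groups, Htt was lower with HTT-10150 in all 7, by a log2 difference between -0.68 and -0.12. In wild-type mice of the same strategy, Htt was 116 ± 16.03 CPM with HTT-10150 (n = 7) and 161.5 ± 8.23 CPM with NTC (n = 8). The HTT-10150 effect on Htt did not pass as different between genotypes (zQ175 minus wild type, 0.13 ± 0.08, edgeR adjusted p = 0.57).

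Htt was 1 of 490 genes, out of 15506, that passed the edgeR test at an adjusted p under 0.05. Of these, 170 rose, which is 1.1% of the genes tested, and 320 fell, which is 2.06%. The changes were small: the median log2 fold change was 0.19 for the genes that rose and -0.16 for those that fell, beside 0.01 over all genes tested. The 2 groups did not overlap for 89 genes, 0.574% of those tested, and 82 of these were called, 19 higher and 63 lower. DESeq2 called 264 higher and 544 lower.

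The counts of called genes depended on single libraries. Without NTC female 4, 0.439% of the genes tested were called higher and 1.01% lower. Without HTT-10150 female 3 the shares were 0.549% and 1.09%, and without HTT-10150 male 3 they were 0.549% and 1.3%. The share called higher was also 0.529% without NTC female 1, 0.562% without NTC female 2, 0.62% without NTC male 3 and 0.725% without HTT-10150 female 1. Females alone gave 5 higher and 12 lower, and males alone gave 0 of either, with 1442 genes at an unadjusted p under 0.05.

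Total counts per library were between 12.8 M and 24.1 M over the 16 libraries, and no pair of libraries was identical. Striatal markers were present in each: 6 genes of striatal projection neurons (Ppp1r1b, Pde10a, Adora2a, Drd1, Drd2 and Rgs9) summed to between 2372 and 3178 CPM with HTT-10150 and between 2617 and 3139 CPM with NTC. Markers of neighbouring tissue varied strongly within both groups. The 15 choroid plexus and ependyma genes summed to between 69.04 and 2741 CPM with HTT-10150 and between 46.2 and 3152 CPM with NTC, and the 15 cortical neuron genes to between 377 and 757 CPM with HTT-10150 and between 363 and 867 CPM with NTC. No member of either list was called, beside 1.1% higher and 2.06% lower among all genes. The part of these tissues in other results was not tested.

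The size and sign of the fold changes followed transcript length. The median length of the longest annotated transcript was 1997 bases for the genes that rose and 7233 bases for the genes that fell, beside 3366 bases over all genes tested. Genes were split by length into 10 bins of about equal size. The longest bin, of 1541 genes, held 52.8% of the genes that fell and 2.35% of those that rose, and the shortest bin, also of 1541, held 0.312% of the genes that fell and 37.6% of those that rose. The median log2 fold change was 0.08 in the shortest bin and -0.07 in the longest bin, with a steady order in between. Across 15406 genes, Spearman's rho of fold change with length was -0.38, as a description, since genes are not independent replicates.

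**Figure D2:**
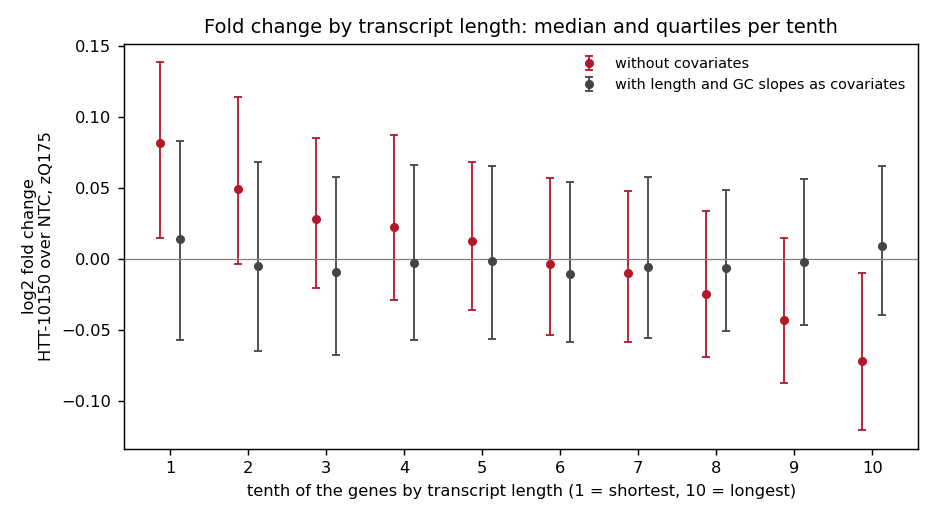
Log2 fold change of HTT-10150 over NTC in zQ175 (y axis) for the genes split into 10 bins by transcript length (x axis, shortest to longest); points are medians and bars run from the first to the third quartile. Without covariates the medians run from 0.08 in the shortest bin to -0.07 in the longest. Once the slopes are fitted as covariates (grey) they lie between -0.01 and 0.01. The slopes were computed from the same counts, so fitting them removes most of a trend with length by design.

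The same pattern can be given per library, as the slope of its gene levels on log2 transcript length, fitted together with GC content and relative to the mean of the 47 libraries of the strategy. With HTT-10150 the lowest, median and highest slopes were -0.053, -0.025 and 0.0054 log2 CPM per SD of log2 length, against -0.0056, 0.013 and 0.043 with NTC. Of the 8 HTT-10150 libraries, 5 lay below every NTC library. The mean difference was -0.037 (n = 8 each, exact two-sided permutation p = 0.0023, adjusted over the 2 slopes 0.0047), while the GC slope differed by 0.012 (exact p = 0.19). In wild type the mean length slope differed by -0.0063 between HTT-10150 and NTC. What makes libraries differ in this slope was not tested.

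**Figure D3:**
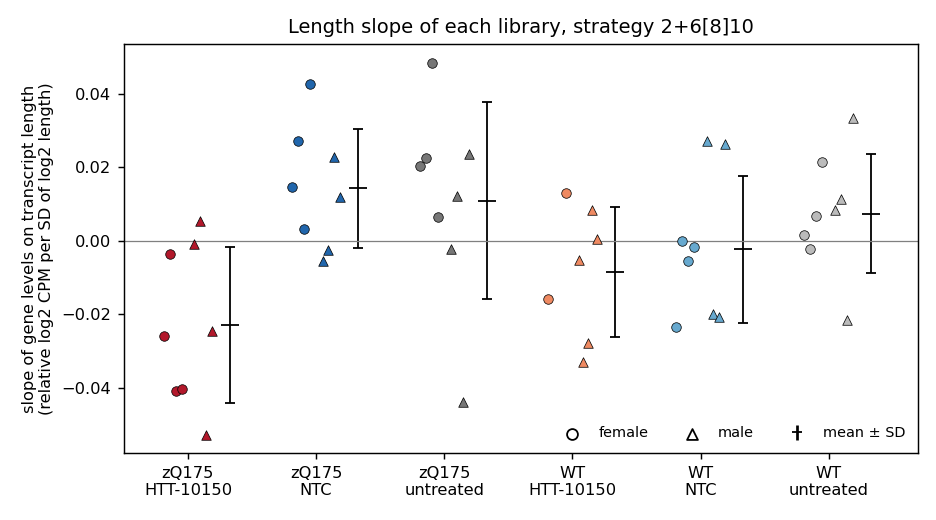
Slope of gene levels on transcript length (y axis, log2 CPM per SD of log2 length, relative to the mean of 47 libraries) for each mouse of the 6 groups; circles are females, triangles males, and the dash with bars is the mean ± SD. In zQ175 the HTT-10150 libraries lie between -0.053 and 0.0054 and the NTC libraries between -0.0056 and 0.043, and untreated zQ175 male 3 lies at -0.044.

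With the length and GC slopes of each library added to the edgeR fit, 2 genes were called, 0.0129% of those tested, and both were higher; 1516 genes had an unadjusted p under 0.05. The 2 genes were Gm14827, a long intergenic noncoding RNA (0.86 ± 0.15, adjusted p = 0.0079), and Safb2, which encodes a scaffold attachment protein of the nucleus (0.26 ± 0.05, adjusted p = 0.0081). Htt was then at -0.26 ± 0.06 with an adjusted p of 0.10. In that fit 11137 of the 15506 genes tested had the same sign as before. All but 1 of the 170 genes that had risen and all but 1 of the 320 that had fallen did so. These genes were called from the same libraries, so their kept sign is a description only. The median log2 fold changes of the called genes were then 0.15 for those that had risen and -0.08 for those that had fallen. Of the 1541 genes of the longest bin, 27 had a lower log2 fold change than Htt without these covariates and 21 with them. The slopes differ between the groups, so the treatment and whatever the slopes carry cannot be fully told apart. With the slopes the median log2 fold change of the cortical neuron list went from 0.09 to -0.46. That of the choroid plexus and ependyma list went from 0.29 to -0.09. Whether the slopes vary with neighbouring tissue was not tested. Without the 3 HTT-10150 libraries of lowest length slope (male 3, female 3 and female 4), a choice made after the slopes were seen, 31 genes were higher and 52 lower.

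The 12 genes named for the largest falls had log2 fold changes between -0.61 and -0.50, and 6 of them had no overlap between the groups. Grin2a, the GluN2A subunit of NMDA-type glutamate receptors, had 14.05, 17.6 and 21 CPM (lowest, median, highest) with HTT-10150, against 24.0, 25.98 and 29.4 CPM with NTC. Its log2 fold change was -0.61 ± 0.10 (edgeR adjusted p = 0.00044). All 8 HTT-10150 mice were below the NTC range. The smallest p belonged to a smaller fall, that of Xpr1, a phosphate exporter, which was named after its value was seen. It had 124.1, 126.2 and 133.1 CPM with HTT-10150, against 138.8, 146.2 and 152.9 CPM with NTC, with no overlap (-0.19 ± 0.03, edgeR adjusted p = 6.3e-05; -0.14 with the slopes as covariates, adjusted p = 0.052).

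Dgkh, a diacylglycerol kinase, fell by 0.61 on the log2 scale, Ptar1 by 0.54, and Fzd3, a Wnt receptor of axon guidance, by 0.51. Syt14, a synaptotagmin, fell by 0.52, Gprin3 by 0.51, and the poly-ADP-ribose polymerase gene Parp14 by 0.51. Lnpep, an aminopeptidase carried by insulin-regulated vesicles, fell by 0.50, and so did the transcription factor gene Klf12. Klf12 had 4.08, 4.32 and 4.42 CPM with HTT-10150, against 5.20, 6.11 and 6.78 CPM with NTC, with no overlap. ENSMUSG00000091562 and ENSMUSG00000054178, which have no symbol in the tables used here, fell by 0.61 and 0.52. Of the 10 with an annotated transcript, the lengths ran from 5890 to 15257 bases. With length and GC slopes as covariates the 12 lay between -0.33 and -0.17, all still below 0, and none passed.

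The 12 genes named for the largest rises were mostly of low abundance, with log2 fold changes between 0.47 and 0.92. Malat1, an abundant nuclear long noncoding RNA (ENSMUSG00000092341, chromosome 19, 5795690 to 5802672), was the exception. It had 1127, 1294 and 1594 CPM with HTT-10150, against 761, 903 and 1137 CPM with NTC, so that the groups met only at their edges. Its log2 fold change was 0.53 ± 0.11 (edgeR adjusted p = 0.0059), and 0.63 ± 0.13 with the slopes as covariates (adjusted p = 0.053). Malat1 is 6983 bases long, so its rise went against the trend with length.

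Gm14827 had 6.19, 7.98 and 9.15 CPM with HTT-10150, against 3.70, 4.92 and 5.78 CPM with NTC, with no overlap (0.73 ± 0.12, edgeR adjusted p = 0.00044). Muc3a, a membrane mucin, rose by 0.77 ± 0.18, Syne4, a nuclear envelope protein, by 0.69 ± 0.16, and Fxyd3, a regulator of the sodium pump, by 0.92 ± 0.24 (adjusted p between 0.012 and 0.023). Fxyd3 was at 0.32 in females and 1.59 in males. Prox2os rose by 0.73, though it is annotated as the opposite strand of Prox2 and the strand setting of the counting is not given in the sources used here. Cyren rose by 0.48, the kinase gene Srpk3 by 0.48, and Col11a1, a fibrillar collagen chain, by 0.47. ENSMUSG00000097210, without a symbol, rose by 0.68. The rise of Gm13341, an unprocessed pseudogene whose reads may be shared with a gene copy, rested on 1 mouse: HTT-10150 female 3 had 24.7 CPM where the next highest had 5.12, and without it the log2 fold change was 0.23 (edgeR adjusted p = 0.32). With the slopes as covariates all 12 stayed above 0, between 0.40 and 0.90, and 6 of them were larger than without. Of the 12, only Gm14827 passed in that fit.

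Of 36 measured genes that define medium spiny neurons, 0 rose and 4 fell, a larger share than the 2.06% lower among all genes tested. The median log2 fold change of the list was -0.01, beside 0.01 over all genes and -0.62 for the same list in untreated zQ175 against untreated wild type. Gad2, a GABA-synthesizing enzyme, had 401, 420 and 463 CPM with HTT-10150, against 451, 498 and 526.3 CPM with NTC (-0.21 ± 0.04, edgeR adjusted p = 0.0046). The calcium release channel gene Itpr1 fell by 0.16, the calmodulin kinase gene Camk4 by 0.15, and Gnal, the G protein subunit behind striatal dopamine receptors, by 0.14. With the slopes as covariates these 4 were at -0.11, -0.03, -0.05 and -0.07, and none passed.

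None of the best known striatal genes passed. Pde10a, the phosphodiesterase of medium spiny neurons, had 629, 827 and 901 CPM with HTT-10150, against 800.1, 845 and 955 CPM with NTC, and stood at 1842 CPM on average in wild type given NTC. Its log2 fold change was -0.10 ± 0.06 (edgeR adjusted p = 0.34), beside -1.04 ± 0.06 for untreated zQ175 against wild type. Penk, the enkephalin precursor, was at 0.08 ± 0.05, Adora2a, an adenosine receptor of the indirect pathway, at 0.11 ± 0.05, and Drd2, the dopamine receptor of that pathway, at 0.02 ± 0.05. Drd1, the receptor of the direct pathway, was at 0.01 ± 0.05, Tac1, the substance P precursor, at 0.09 ± 0.06, and Pdyn, the dynorphin precursor, at 0.02 ± 0.08. Ppp1r1b, which encodes DARPP-32, was at 0.04 ± 0.05. The direct pathway list (13 measured), the indirect pathway list (11), the interneuron list (18) and the immediate early genes (24) had 0 called members each. Among all genes 1.1% rose and 2.06% fell, so lists this small can hold 0 calls at that share.

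Ion channels, receptors and synaptic genes set the firing and release of these neurons. The shares called among all genes were 1.1% higher and 2.06% lower. Of 37 potassium channel genes, 0 rose and 3 fell. Kcnma1, the large-conductance calcium-activated channel, had 35.1, 40.9 and 44.8 CPM with HTT-10150, against 47.7, 53.6 and 58.5 CPM with NTC (-0.39 ± 0.06, edgeR adjusted p = 0.00018; -0.19 with the slopes as covariates, adjusted p = 0.084). No mouse of either group crossed into the range of the other. Kcna2, an axonal channel, fell by 0.40, also with no overlap, and was at -0.17 with the slopes (adjusted p = 0.35). The list's median was -0.06, or -0.03 with the slopes, and its median transcript length was 5215 bases, beside 3366 over all genes.

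Against the same 2.06%, 2 of 24 sodium and calcium channel genes fell, Scn2a by 0.14 and the leak channel gene Nalcn by 0.12. Of 27 ionotropic glutamate receptor and scaffold genes, Grin2a and Dlg2, a postsynaptic scaffold (-0.16 ± 0.05), fell. Of 13 GABA-A receptor subunits, Gabrb2 fell by 0.31. Of 32 genes of calcium stores and calmodulin kinases, 4 fell, with Atp2a2, the calcium pump of the endoplasmic reticulum, at -0.13 ± 0.03 and Camk1d at -0.14 ± 0.04 beside Itpr1 and Camk4. Of 40 synaptic vesicle genes, 5 fell and 32 had a log2 fold change below 0. Pclo, a very long active zone scaffold of 20084 bases, was at -0.21 ± 0.05 without the slopes as covariates and at -0.03 ± 0.04 with them. The vesicle gene Rab3c fell by 0.16, Rims2 by 0.17, and Sv2c by 0.33. With the slopes as covariates 0 members of these 5 lists passed. Grin2a was then at -0.32, Gabrb2 at -0.16, Camk1d at -0.09, Rab3c at -0.07, and Scn2a, Atp2a2, Rims2 and Sv2c each at -0.06, with Nalcn at -0.05 and Dlg2 at -0.0085. The median transcript lengths of the 5 lists ran from 4108 to 8076 bases. With the slopes the median log2 fold change went from -0.035 to -0.049 for synaptic vesicle genes and from -0.0048 to -0.040 for calcium stores and kinases. It went from -0.024 to -0.0085 for glutamate receptors, from -0.039 to -0.016 for GABA-A subunits and from -0.040 to 0.0048 for sodium and calcium channels. Of the remaining lists, those with 1 call each held Sort1, Pcdhb2, Hspa9, Clock and Ash1l, which fell, and Gabarap, which rose; Gnal was also the only call in the list of dopamine and cAMP signalling. These, with Sv2c, Gabrb2, Fcrls, Ddit3 and Arfgef3, were named after their values were seen.

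Cytosolic ribosomal protein genes, which have short transcripts (median 1151 bases), were the list with most rises. Of 45 measured, 12 rose and 0 fell, against 1.1% higher among all genes, 44 had a log2 fold change above 0, and the median was 0.12. Rpl19 had 203, 209 and 226.4 CPM with HTT-10150, against 183, 187 and 198 CPM with NTC (0.16 ± 0.03, edgeR adjusted p = 0.0025), with no overlap. Rpsa rose by 0.16, Rplp1 by 0.17 and Rpl34 by 0.16; such genes have many processed pseudogenes, between which the counting can split reads. With the slopes as covariates the median of the list was 0.04 and 0 members passed. Among other short-transcript lists, 0 of 38 respiratory chain genes were called with a median of 0.06, and 0 of 32 proteasome genes with a median of 0.04.

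Among nuclear long noncoding RNAs, Malat1 alone passed. Of 14 measured, 11 were above 0 and 1 was called, beside 1.1% higher and 2.06% lower among all genes. The median of the list was 0.15, or 0.14 with the slopes as covariates. Meg3 was at 0.23 ± 0.09 (edgeR adjusted p = 0.14), Miat at 0.29 ± 0.13 (adjusted p = 0.25) and Neat1 at 0.13 ± 0.12 (adjusted p = 0.64).

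Of 23 endothelial and mural genes, 2 rose and 0 fell, beside 1.1% higher among all genes, and both mark vascular smooth muscle. The list's median was -0.02, and 13 of its 23 members had a log2 fold change below 0. Acta2, smooth muscle actin, had 7.22, 7.71 and 8.82 CPM with HTT-10150, against 3.36, 5.41 and 6.87 CPM with NTC (0.51 ± 0.10, edgeR adjusted p = 0.0029; 0.50 with the slopes as covariates, adjusted p = 0.099). All 8 HTT-10150 mice were above the NTC range. Tagln, an actin-binding protein of the same cells, rose by 0.41 ± 0.08 (0.29 with the slopes, adjusted p = 0.22), and Myl9, a myosin light chain named here after its value was seen, by 0.31 ± 0.07. Myh11, the smooth muscle myosin, was at 0.24 ± 0.11 (adjusted p = 0.26). The endothelial tight junction gene Cldn5 was at 0.04 ± 0.10 and the pericyte receptor gene Pdgfrb at -0.10 ± 0.06. The summed level of the list was between 931 and 1102 CPM with HTT-10150 and between 940 and 1089 CPM with NTC.

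Interferon response genes (34 measured), nucleic acid sensors (19), inflammatory cytokines and complement (17), astrocyte genes (17) and reactive astrocyte genes (13) had 0 called members. Among all genes 1.1% rose and 2.06% fell, so 0 or 1 call in a list of this size is near that share. Gfap, the astrocyte filament, was at -0.07 ± 0.18 (edgeR adjusted p = 0.91) and Aif1, a microglial protein, at 0.16 ± 0.12 (adjusted p = 0.50). Of 19 homeostatic microglia genes, Fcrls rose by 0.23 ± 0.06 (adjusted p = 0.040). Of 18 activated microglia genes, Itgax, the CD11c integrin, was called, and it fell: it had 0.698, 1.28 and 2.02 CPM with HTT-10150, against 1.73, 2.16 and 3.28 CPM with NTC (-0.83 ± 0.24, adjusted p = 0.046). Siglecf, a sialic acid receptor of immune cells, fell by 0.92 ± 0.24 (adjusted p = 0.022). Both were named after their values were seen and both have low levels, with no library above 3.28 CPM. Without covariates their falls were smaller than with them (-0.97 and -1.32, adjusted p = 0.21 and 0.053). In untreated mice Itgax was higher in zQ175 than in wild type by 1.63 on the log2 scale, and Siglecf was at 0.37, which did not pass. Of the other activated microglia genes, Cst7 was at -0.21 ± 0.25 and Clec7a at -0.22 ± 0.22.

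**Figure D4:**
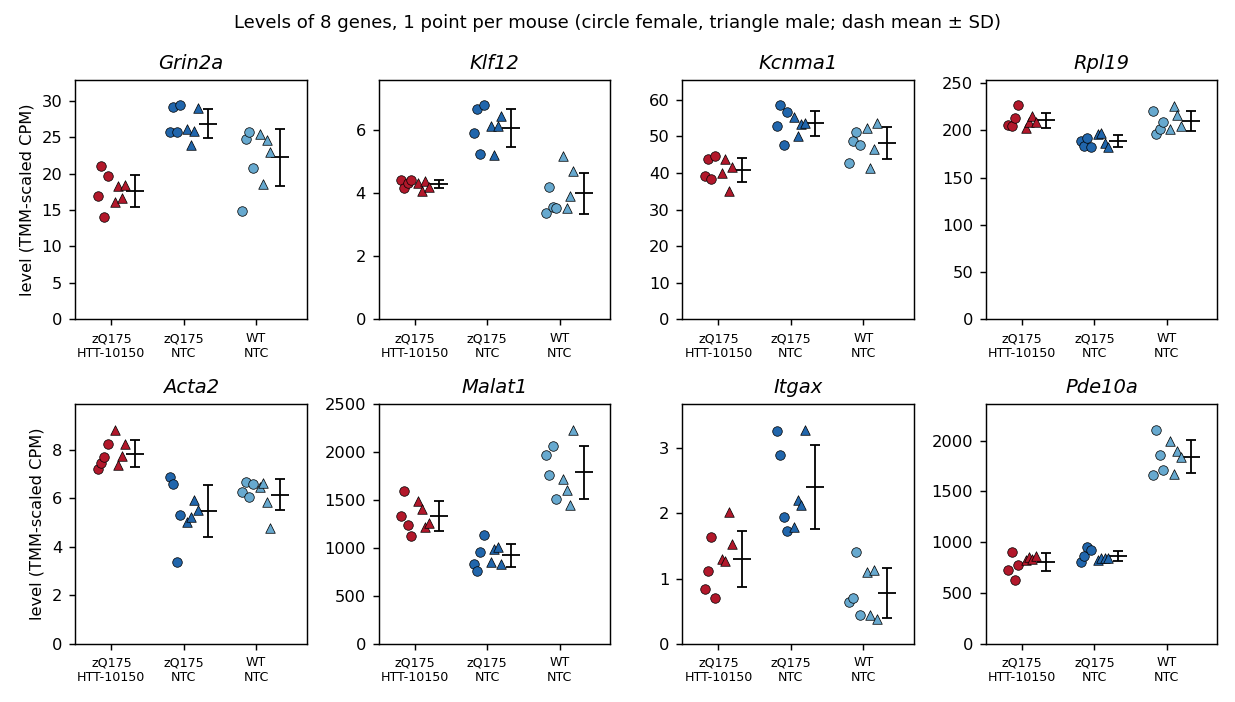
Levels in TMM-scaled CPM (y axes, from 0) of 8 genes for each mouse: zQ175 given HTT-10150, zQ175 given NTC, and wild type given NTC; circles are females, triangles males, and the dash with bars is the mean ± SD. Grin2a, Klf12, Kcnma1, Rpl19 and Acta2 show no overlap between the zQ175 groups, and Malat1 overlaps at its edges. Itgax and Pde10a overlap in part, and Pde10a stays far below wild type.

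Of 21 genes of the machinery that loads and carries small RNAs, 1 rose and 1 fell, beside 1.1% higher and 2.06% lower among all genes. Tarbp2, a partner of Dicer, rose by 0.22 ± 0.06, and Dhx9, an RNA helicase, fell by 0.17 ± 0.03 with no overlap (113.1, 122 and 127.8 CPM with HTT-10150, against 131, 139 and 140 CPM with NTC; edgeR adjusted p = 0.0006). Of 24 genes of huntingtin and its partners, 2 fell, Htt itself and Rasa1, a Ras regulator (-0.14 ± 0.04). Of 29 genes of cholesterol synthesis and handling, Msmo1, a sterol oxidase, rose by 0.17 and Abca1, a cholesterol exporter, fell by 0.24. Of 30 integrated stress response genes, Ddit3 rose by 0.24 ± 0.07 (edgeR adjusted p = 0.031). None of these passed once the slopes were fitted as covariates: Tarbp2 was at 0.12, Dhx9 at -0.10, Rasa1 at -0.07, Msmo1 at 0.15, Abca1 at -0.12 and Ddit3 at 0.16. In all, 22 of the 45 lists had no called member and 11 had at least 2.

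Whether the changes ran towards wild type was described with genes that differed between untreated zQ175 and untreated wild-type mice, which share no library with the comparison. Of 15506 genes, 2645 were higher in untreated zQ175, 17.1%, and 2838 were lower, 18.3%. Of the 2645 higher, 18 rose and 68 fell with HTT-10150, which is 0.68% and 2.57%, beside 1.1% and 2.06% of all genes tested. A negative log2 fold change was found for 55.7% of them, beside 48.1% of all genes tested. Of the 2838 lower, 48 rose (1.69%) and 59 fell (2.08%, near the share of all genes), and 45.6% were negative. The medians were -0.01 and 0.01, beside 0.01 over all genes. Among the 10023 other genes, 104 rose (1.04%) and 193 fell (1.93%). With the slopes as covariates the negative shares were 61.2% and 46.5%, beside 50.9% of all genes.

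By distance of group means, the HTT-10150 group was closer than the NTC group to wild type given NTC for 118 of the 170 genes that rose, 69.4%, and for 55.6% of the 320 that fell, beside 52.3% of all genes tested. The NTC zQ175 mice enter both distances and the calls, so this is a description. Examples among the named genes went both ways. Abca1 was higher in untreated zQ175 by 0.30 and fell with HTT-10150, and Msmo1 was lower by 0.39 and rose. Itpr1, lower in untreated zQ175 by 0.60, Camk4, lower by 0.66, and Gprin3, lower by 0.63, fell further with HTT-10150, and Col11a1, higher by 0.63, rose further.

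In wild-type mice of the same strategy, HTT-10150 against NTC gave 1 gene higher and 1 lower by edgeR, with 812 at an unadjusted p under 0.05. The lower gene was Htt, and the higher gene was the microglial receptor gene Fcrls, at 0.48 in wild type and 0.23 in zQ175. The difference of the effect between genotypes (zQ175 minus wild type) passed for 82 genes, 0.529% of those tested, 36 above 0 and 46 below. Klf12 had the smallest adjusted p of the named genes: its effect was -0.50 in zQ175 and 0.33 in wild type, a difference of -0.82 ± 0.13 (edgeR adjusted p = 0.0019). For Malat1 the effects were 0.53 in zQ175 and -0.23 in wild type, a difference of 0.76 ± 0.16 (adjusted p = 0.026). For Grin2a they were -0.61 in zQ175 and 0.01 in wild type, a difference of -0.62 ± 0.15 (adjusted p = 0.044). In wild type alone the effects on Klf12 and Malat1 did not pass by edgeR (adjusted p = 0.48 and 0.95). Wild-type means with HTT-10150, NTC and no treatment were 4.99, 3.99 and 5.62 CPM for Klf12. For Malat1 these means were 1522, 1789 and 1374 CPM. For both genes NTC lay farther from untreated than HTT-10150 did, and NTC against untreated wild type was not tested here. With the slopes as covariates 5 genes passed, 3 above 0 and 2 below. The difference for Klf12 was then -0.64 (adjusted p = 0.042), and those for Malat1, at 0.84 (adjusted p = 0.058), and Grin2a, at -0.35 (adjusted p = 0.27), did not pass. DESeq2 called 221 without covariates. Of the 320 genes that fell in zQ175, 140 were negative in wild type, 43.8%, a smaller share than the 50.4% of all genes. Of the 170 that rose, 86 were positive, 50.6%, near the 49.6% of all genes.

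Single treatments gave no call in zQ175 mice. HTT-10150 against NTC gave 0 called genes in 6[4]10 and 0 in 2[4]6 by edgeR in the fit of all 143 libraries, with 659 and 862 at an unadjusted p under 0.05; the comparison with 2 treatments gave 173 in that fit. Of the 320 genes that fell after 2 treatments, 30.9% were negative in 6[4]10 and 26.9% in 2[4]6, beside 50.03% and 51.3% of all genes. Of the 170 that rose, 45.3% were positive in 6[4]10 and 52.4% in 2[4]6. Spearman's rho of fold change with transcript length was -0.36 for 2 treatments, 0.02 in 6[4]10 and 0.22 in 2[4]6, across 16175 genes in that fit. Htt was at -0.31 in 6[4]10 and -0.01 in 2[4]6.

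The difference of the HTT-10150 effect itself passed for 3 genes against 6[4]10, 2 above 0 and 1 below, and for 5 genes against 2[4]6, 3 above 0 and 2 below. DESeq2 called 33 and 56. Against 6[4]10 they were Gm14827 and Muc3a, which were higher after 2 treatments, and Xpr1. Against 2[4]6 they were the smooth muscle genes Acta2, Tagln and Myl9, which were higher after 2 treatments, and Dgkh and Arfgef3, which were lower. Acta2 was at 0.51 after 2 treatments and -0.42 in 2[4]6, and Dgkh at -0.61 and 0.33. Strategies differ in cohort, in age at treatment and, for 2[4]6, in age at collection, and these cannot be told apart from the number of treatments.

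Untreated zQ175 mice gave a second control. Against them, HTT-10150 called 191 genes, with 0.374% of the genes tested higher and 0.858% lower. Untreated male 3 stood apart with a length slope of -0.044 and an Htt level of 109.6 CPM, the lowest of a group whose median was 134 CPM. Without that mouse, a choice made after its values were seen, HTT-10150 called 0.955% higher and 2.40% lower. Htt was at -0.31 with it and -0.35 without it (edgeR adjusted p = 0.0034 and 9.5e-05). Between NTC and untreated zQ175 mice 0 genes passed by edgeR, and 473 had an unadjusted p under 0.05. Grin2a was at -0.57 against untreated mice and -0.61 against NTC, Malat1 at 0.52 and 0.53, and Acta2 at 0.25 and 0.51. Against untreated mice Acta2, Tagln, Itgax and Siglecf did not pass (adjusted p = 0.22, 0.20, 0.43 and 0.71). The fold changes against untreated mice also followed transcript length (rho -0.35), and those of NTC against untreated mice did so far less (rho 0.07).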

How the data were processed

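Striatal RNA was selected for poly(A) before sequencing, per the labels' protocols. Per the submitters' processing notes reads were quantified with RSEM on GRCm38; the deposited table holds expected counts, not normalized by their values, and the annotation is not given in the sources used here. Expected counts were rounded to whole numbers, which 78.4% of the nonzero values already were. Of 41135 entries, 7 naming no mouse gene (5.91e-06% of counts) entered neither library sizes nor tests. A second deposited table, of FPKM by its name, was not used.

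edgeR 4.0.16 (R 4.3.3; TMM, filterByExpr, robust quasi-likelihood) was fitted over the 47 libraries of 6 groups in 2+6[8]10 with sex as a term, and a gene was called at an adjusted p under 0.05 over 15506 genes. Differences between strategies came from 1 fit of 143 libraries. Levels are TMM-scaled CPM; SE is the fold change over the square root of F. Lengths are of the longest GENCODE M21 transcript. The scripts were tested on simulated data. Named genes were Htt, the 12 largest changes in each direction (mean log2 CPM over 1, one direction in females and males alike), at most 4 members (smallest p) of each list with 2 or more called, and 10 striatal and glial genes; a few of these are not reported here. The comparison, lists and rules were chosen with earlier results of these data known. Counting intervals (95%) cover counting error only. Replicates are mice, as the labels' design text says. Depth was 12.8 M to 24.1 M counts per library. Alternatives were DESeq2 1.42.0, RLE, no filter, other controls, blocks, covariates and left-out libraries.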

Additional observations from a re-analysis of the deposited data

Results flagged for a closer look

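In 122 groups of values of named genes, 8 held 1 mouse far from the others; chance alone gives such a flag in about 1 of 20 groups. HTT-10150 female 3 had 24.7 CPM of Gm13341 (next 5.12) and 4.28 CPM of Cyren (next 3.51), and HTT-10150 female 4 had 248.7 CPM of Tac1 (next 207). NTC female 3 had 7.60 CPM of Muc3a (next 5.20) and 2.96 CPM of Syne4 (next 1.73). NTC female 4 had 292 CPM of Dlg2 (next 272.5) and 60.0 CPM of Rasa1 (next 55.1), and NTC male 4 had 65.4 CPM of Rims2 (next 59.8).

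The HTT-10150 effect on the following named genes differed between zQ175 and wild type by edgeR's test of the difference. In log2 units, zQ175 minus wild type, the difference was 1.20 for Muc3a, 0.97 for Gm14827, 0.76 for Malat1 and 0.56 for Tagln. It was -0.82 for Klf12, -0.76 for Ptar1, -0.72 for Parp14, -0.65 for Dgkh, -0.62 for Grin2a, -0.59 for Fzd3, -0.57 for Lnpep, -0.41 for Kcnma1 and -0.26 for Rims2. These differences also depend on the wild-type NTC mice: mean Muc3a in wild type was 7.69 CPM with HTT-10150, 10.3 CPM with NTC and 6.24 CPM untreated. Between 2 treatments and 6[4]10 the effect differed by 1.002 for Muc3a and 0.92 for Gm14827. Between 2 treatments and 2[4]6 it differed by 0.92 for Acta2, 0.81 for Tagln and -0.94 for Dgkh.

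The deposited table also holds an entry of its own for a mutant Htt, which no comparison used. Its expected counts summed to 14.3 over the 8 zQ175 mice given HTT-10150 (exact 95% Poisson interval of the rounded sum 7.65 to 23.5) and to 23.5 over the 8 given NTC (14.6 to 34.5). It was at 0 in every wild-type library of strategy 2+6[8]10. The intervals overlap and cover counting error only, and the difference between the groups was not tested.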

How the results depend on the processing

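Htt kept its direction under all 30 alternatives, between -0.44 and -0.26 on the log2 scale, and passed in 27. It did not pass with the length and GC slopes as covariates (-0.26, edgeR adjusted p = 0.10), with these and the replicate block (-0.29, adjusted p = 1) or in males alone (-0.28, adjusted p = 0.16). The shares of tested genes called higher and lower, 1.1% and 2.06%, were 1.70% and 3.51% with DESeq2, 0.351% and 0.787% without a filter on low counts, 0.230% and 0.925% with the library-name number as a block, 0.0129% and 0 with the slopes, 0 and 0 with the slopes and the replicate block, 0.374% and 0.858% against untreated mice, 0.0323% and 0.0774% in females and 0 and 0 in males. Leaving out each mouse gave 0.439% to 1.33% higher and 1.01% to 2.21% lower. Without the 3 HTT-10150 libraries of lowest length slope, chosen after seeing the data, they were 0.198% and 0.333%; against untreated mice without untreated male 3, also chosen after seeing the data, 0.955% and 2.40%. Mice of the same sex and replicate number shared little deviation. Over 8 pairs the correlations of deviations ran from -0.19 to 0.28, 2 were above 0.1, and 1 mouse correlated best with its own number. Most of these pairs also shared a library-name number, so the correlations do not show that the mice were unmatched. With the replicate block 0.564% of genes (86) were higher and 1.73% (263) lower.

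The difference between genotypes called 82 genes, 221 with DESeq2 and 5 with the slopes. Against 6[4]10 the 3 genes became 33 with DESeq2 and 23 with the slopes, and against 2[4]6 the 5 became 56 and 1. Over the named genes, 1281 values kept direction and side of the threshold, 494 kept direction only, and 6 changed sign, all with the slopes and the replicate block together: Fxyd3 -0.58, Gnal 0.0050, Scn2a 0.0499, Nalcn 0.0180, Tarbp2 -0.0081 and Pclo 0.0276. DESeq2 gave no adjusted p for 6018 genes, 19 of them named. The cause of these changes was not tested. Depth limits genes of a few CPM.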
